A study of Saccharomyces cerevisiae with 16 samples.

Results

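The genes described here are 37 named yeast genes whose products modify transfer RNA (tRNA), the adaptor that reads codons during translation. They were taken by name and not by a cut on measured values, but earlier results of these data were known when they were chosen. Each was represented by the probe set that the platform annotation assigned to that gene alone. Such a probe set existed for 36 of the 37 genes, and all 36 passed the filter on low signals, so the values below cover 36 genes among 5410 tested (of 5656 genes with a probe set of their own). The remaining gene is not reported here. TRM3 had 7 probe sets, of which the brightest was used, and every other gene had 1.

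Precursor tRNAs are trimmed, spliced and chemically modified at many bases and riboses before they enter translation. Modifications in the body of the molecule stabilise its fold, while those in and next to the anticodon tune decoding and reading frame. The enzymes fall into classes by chemistry. Methyltransferases (the Trm proteins, Gcd10 with Gcd14, and Ncl1) add methyl groups, pseudouridine synthases (Pus proteins and Deg1) isomerise uridine, and dihydrouridine synthases (Dus) reduce it. Adenosine deaminases (Tad) make inosine, Mod5 attaches an isopentenyl group, and the Elongator complex (Elp proteins) begins the side chain of the wobble uridine. Several listed gene products are partner subunits with no catalytic site of their own, among them Trm82, Trm112, Trm732, Gcd10 and Tad3, and Pus5 acts on mitochondrial ribosomal RNA rather than on tRNA. In yeast, many genes of ribosome and tRNA production are transcribed more strongly when a fermentable sugar is supplied to slowly growing cells.

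Total RNA of Saccharomyces cerevisiae CEN.PK 113-7D, a haploid laboratory strain, was hybridised to 16 Affymetrix arrays. Every culture grew aerobically with limiting carbon in a chemostat, a vessel whose volume is replaced continuously, here with 0.05 volumes per hour, at 30 degrees C and pH 5. The feed of all cultures held 27.1 g glucose and 1.42 g ethanol per litre. Samples came from the steady state before glucose was added (3 arrays) and from later times, with 2 arrays each at 30 s, 60 s and 330 s, 3 each at 120 s and 300 s, and 1 at 210 s. Time counts from a pulse that lifted the residual sugar to a concentration of 5.56 mM. Cells were quenched in liquid nitrogen, and per the labels all times but 210 s rest on independent cultures. A signal below is a linear intensity scaled so that each array has a trimmed mean of 150, with values under 12 set to that floor. Signals are listed in the order of the pulse number in the titles, which is 1, 2 and 3 for steady state, 120 s and 300 s, 2 and 3 for 30 s and 60 s, and 1 and 2 for 330 s. Log2 changes carry the standard error (SE) of a limma fit over the 15 arrays of the replicated times. A gene is said to have risen or fallen where its Benjamini-Hochberg adjusted p over all 5410 genes was under 0.05. Signals of different probe sets are not on a common scale, so levels are compared only within a gene.

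Before scaling, the trimmed mean of the arrays ran from 82.8 to 325.9, and 1.65% to 4.86% of tested genes lay at the floor. Between replicate arrays the median absolute difference over genes was 0.157 to 0.279 on the log2 scale, so none were copies of each other. The experiment files placed the arrays on 6 hybridization or scan days. Both 330 s arrays shared a day that held no other array, so the 330 s time and that day cannot be told apart. All 6 markers of mating type a stood above the floor on all 16 arrays. Of 4 markers of mating type alpha, MF(ALPHA)2 was at the floor on 14 of 16 arrays and the other three were above it on all. Because these are bulk RNA samples, a change in how many cells carry a transcript and a change in its amount per cell cannot be told apart.

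**Figure D1:**
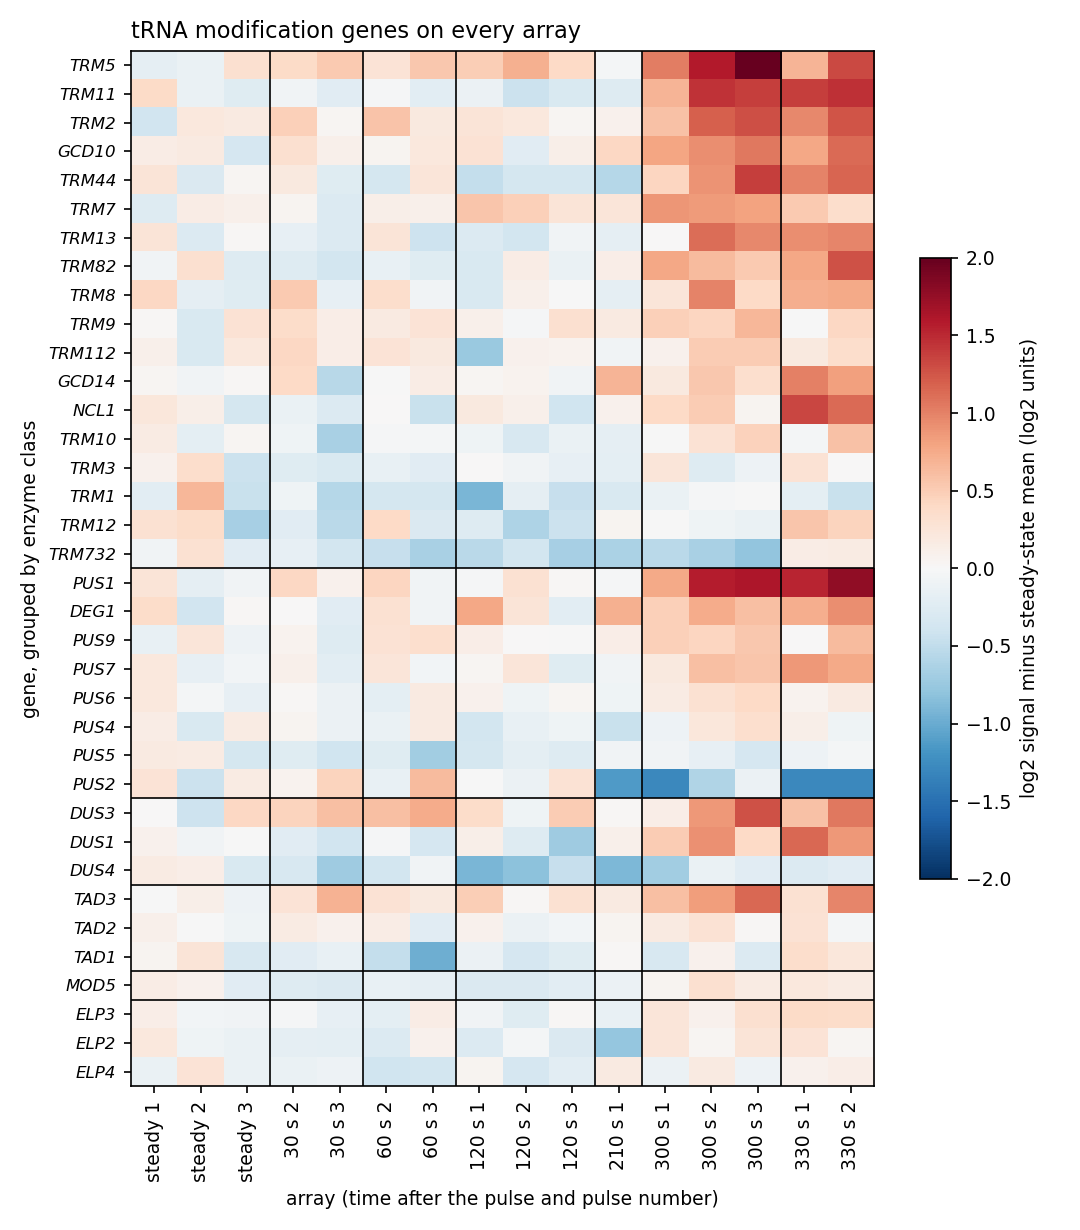
Log2 signal of the 36 measured genes (rows, grouped by enzyme class and ordered by change at 300 s) on each of the 16 arrays (columns, labelled by time and pulse number), minus the mean of the 3 steady-state arrays. Red cells are above and blue cells below that mean, with the colour scale ending at 2 log2 units; the red block begins at 300 s, with TRM5, TRM11, TRM2 and PUS1 at its head, and PUS2 is blue at 210 s, on 300 s pulse 1 and at 330 s.

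No tRNA modification transcript passed the test during the first 120 s after the pulse. Of the 36 genes 0 passed the test at 30 s, 0 at 60 s and 0 at 120 s, where over all genes 0%, 0% and 0.0739% passed in the limma fit. Without adjustment, 2, 5 and 4 of the 36 had p under 0.05, against 336, 343 and 586 of the 5410 genes. The median log2 change of the 36 genes was -0.10 at 30 s, -0.02 at 60 s and -0.09 at 120 s, close to the medians of all genes (-0.05, -0.05 and -0.07). The smallest unadjusted p-values belonged to DUS4, one of the dihydrouridine synthases, with -0.73 ± 0.21 at 120 s (limma adjusted p = 0.273), and to TAD1, the deaminase of alanine tRNA, with -0.72 ± 0.20 at 60 s (adjusted p = 0.760). TRM732 gave -0.55 ± 0.18 at 60 s and -0.52 ± 0.16 at 120 s (adjusted p = 0.760 and 0.287), with all arrays below all steady-state arrays at both times. These 3 genes were singled out after their values were seen. None of the 36 passed in either direction at these times when the day was a term in the fit.

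By 300 s, 13 of the 36 genes had risen and 1 had fallen against steady state. Over all 5410 genes, 12.1% rose and 18.3% fell in the same fit. The 13 were the methyltransferase genes TRM2, TRM5, TRM7, TRM9, TRM11, TRM44, TRM82 and GCD10, the pseudouridine synthase genes PUS1 and PUS7, DUS1, DUS3 and TAD3, and the gene that fell was TRM732. The median log2 change of the 36 was 0.36, against -0.12 for all genes, and 27 of 36 values were positive, against 2082 of 5410. On 14 of the 36 genes all 300 s arrays lay above all steady-state arrays, which was so for 14.1% of all genes. Scaling moved the balance of calls over all genes. The higher share of called genes was 39.8% as reported, 62.3% with arrays centred on their median and 50.5% after quantile normalization, while the all-gene median moved from -0.12 to 0.05 with median centring. The corresponding numbers of risen tRNA modification genes were 13, 18 and 17.

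The 300 s arrays did not weigh equally. Pulse 1 gave the lowest of the 3 signals for 9 of the 13 risen genes, as it did for 63.9% of the 656 genes that rose in all. The median excess of the 13 over their steady-state mean was 0.60 log2 units on pulse 1, 0.90 on pulse 2 and 1.14 on pulse 3, where the 656 genes had 0.69, 0.85 and 0.86. With pulse 1 of 300 s left out, 12 of the 36 genes rose, and over all genes 693 did instead of 656. Within the day shared by 300 s pulse 1 and steady-state pulse 2, 26 of all 36 genes were higher at 300 s, with a median difference of 0.29 log2 units. Within the day shared by pulse 3 of both times 34 of 36 were, with a median of 0.43. The share of all genes higher between the same arrays was not counted, so a shift of whole arrays cannot be told apart here. The 13 genes, which were called with these arrays among others, differed by 0.35 to 1.16 and 0.37 to 1.76 on those days. With the day as a term in the fit 14 genes rose: TRM8 (0.58, limma adjusted p = 0.0288) and DEG1 (0.66, 0.0155) were added and TRM9 (0.53, 0.0546) was lost. Over all genes 677 rose in that fit, instead of 656. Some calls lay close to the threshold and were lost when 1 array was left out, with log2 changes that stayed between 0.36 and 0.76. The call of TRM9 was lost without any 1 of the 6 arrays other than steady-state pulse 3 (limma adjusted p up to 0.135). DUS1 lost its call without any steady-state array or 300 s pulse 2 (up to 0.151), and DUS3 without steady-state pulse 1 or 2 or 300 s pulse 2 or 3 (up to 0.212). PUS7 lost it without pulse 2 or 3 of either time (up to 0.165), and TRM82 without steady-state pulse 1 or 3 or 300 s pulse 1 (up to 0.0701).

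**Figure D2:**
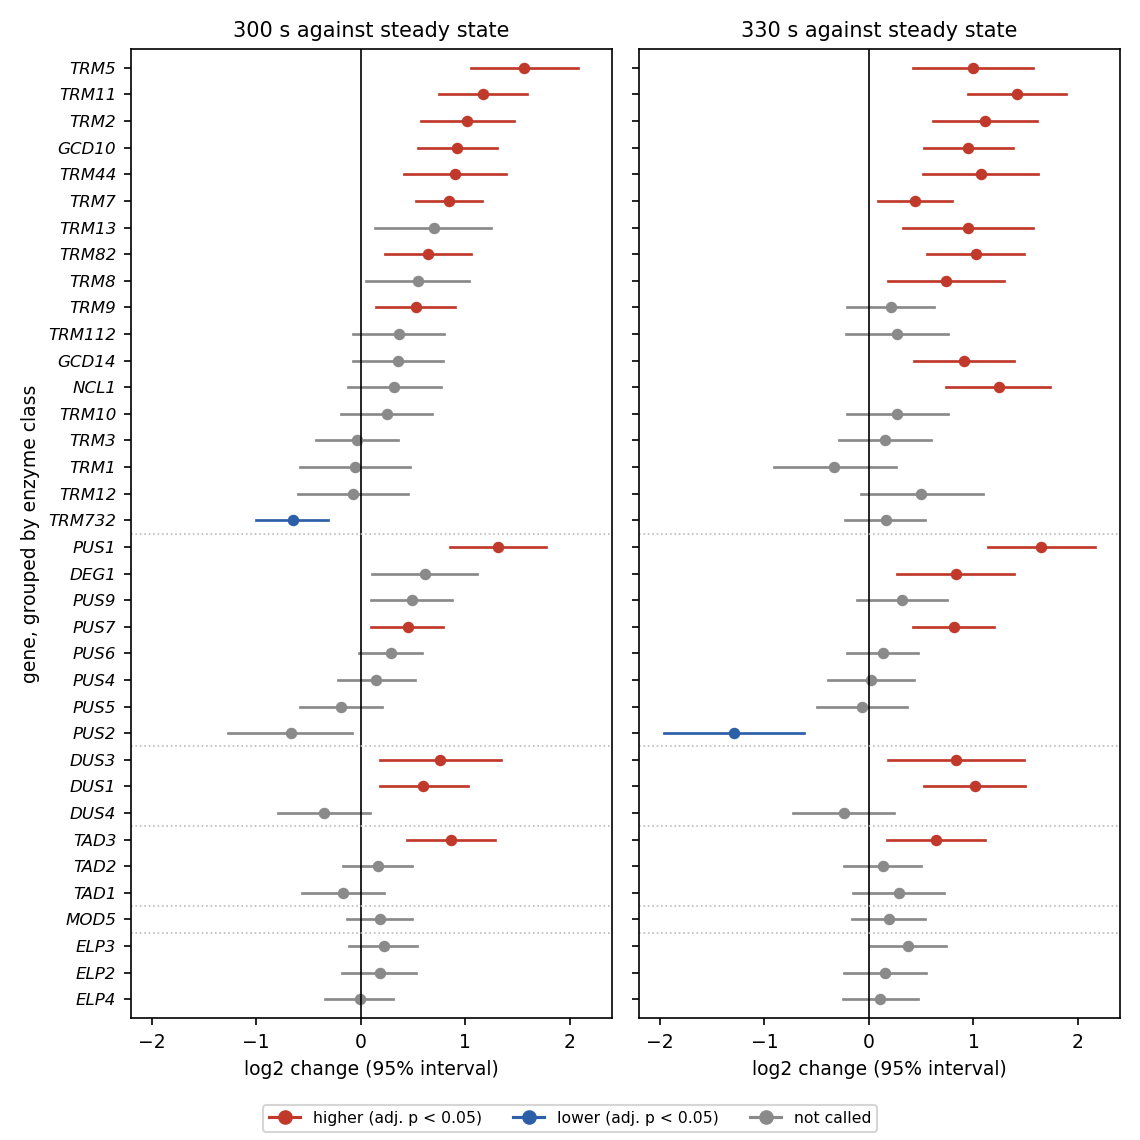
Log2 change of the 36 genes against steady state at 300 s (left) and 330 s (right), as points with the 95% interval of the limma fit, in the same gene order as the map of all arrays. Red marks genes that rose (13 at 300 s and 17 at 330 s), blue genes that fell (1 at each time) and grey genes that did not pass the test; TRM5 leads at 300 s with 1.56 and PUS1 at 330 s with 1.65.

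At 330 s 17 of the 36 genes had risen and 1 had fallen, with 13.3% and 24.3% of all genes called in those directions. The median log2 change of the 36 was 0.41 against -0.19 for all genes, and 32 of 36 values were positive, against 1967 of 5410. On 20 genes both 330 s arrays lay above all steady-state arrays (19.0% of all genes). Risen at both late times were 12 genes; TRM9 passed at 300 s and not at 330 s, and TRM8, TRM13, GCD14, NCL1 and DEG1 passed at 330 s and not at 300 s. Both comparisons use the same 3 steady-state arrays, and the difference between 300 s and 330 s was not tested. With 1 of the 330 s arrays left out, a single array stood for that time. With the array-number series as a block 11 of the 36 genes rose, and over all genes 599 did instead of 720. The titles give the array numbers, and their division into 4 series was made for that fit and is not in the labels. The calls of TRM7, TRM8, TRM13, DEG1 and DUS3 were lost without either 330 s array and also without steady-state pulse 1 (TRM7 and DUS3), 2 (TRM8, TRM13, DEG1 and DUS3) or 3 (TRM8), with limma adjusted p up to 0.235, 0.149, 0.0939, 0.143 and 0.291 in that order of genes. TAD3 lost its call without steady-state pulse 1 or 3 or 330 s pulse 2, and in the last case its log2 change was 0.30 (adjusted p = 0.409). Without 330 s pulse 2, TRM5 had a log2 change of 0.67 (adjusted p = 0.150) and TRM44 an adjusted p of 0.0513, and without pulse 1 GCD14 had 0.0595.

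Between 120 s and 300 s, 11 of the 36 genes rose and 0 fell, where 11.3% and 10.8% of all genes did. The log2 changes of this comparison do not use the steady-state arrays, which entered only the estimate of the spread. The 11 were TRM2, TRM5, TRM11, TRM13, TRM44, TRM82, GCD10, PUS1, DUS1, TAD3 and MOD5. The 36 genes had a median of 0.42 and all genes -0.04, and 34 of 36 values were positive, against 2453 of 5410. Within the day shared by the pulse 2 arrays 33 of all 36 genes were higher at 300 s (median difference 0.48 log2 units), and within that of the pulse 3 arrays 32 were (median 0.46). The share of all genes higher on these days was not counted. The 11 genes, called with these arrays among others, differed by 0.48 to 1.88 and 0.38 to 1.73 there. With the day as a term 16 genes rose, and without 300 s pulse 1 there were 15. Over all genes 658 and 604 rose in these fits, instead of 612. MOD5 lost its call without any 1 array other than 300 s pulse 1 (limma adjusted p up to 0.140), and TAD3 without pulse 2 or 3 of either time (up to 0.171). TRM13 lost it without 120 s pulse 1 or 2 or 300 s pulse 2 or 3 (up to 0.0871), and TRM82 without 120 s pulse 1 (0.0596).

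The comparison of 300 s with 120 s and that of 330 s with steady state share no array. In both, 10 of the 36 genes had risen, where 8.58% of all genes had. These 10 make up 58.8% of the genes risen at 330 s and 90.9% of those risen between 120 s and 300 s. Over all genes, the 464 risen in both make up 64.4% and 75.8% of the respective lists. Over the whole course, the moderated F test of limma on the 5 comparisons with steady state called 17 of the 36 genes and 35.5% of all genes.

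**Figure D3:**
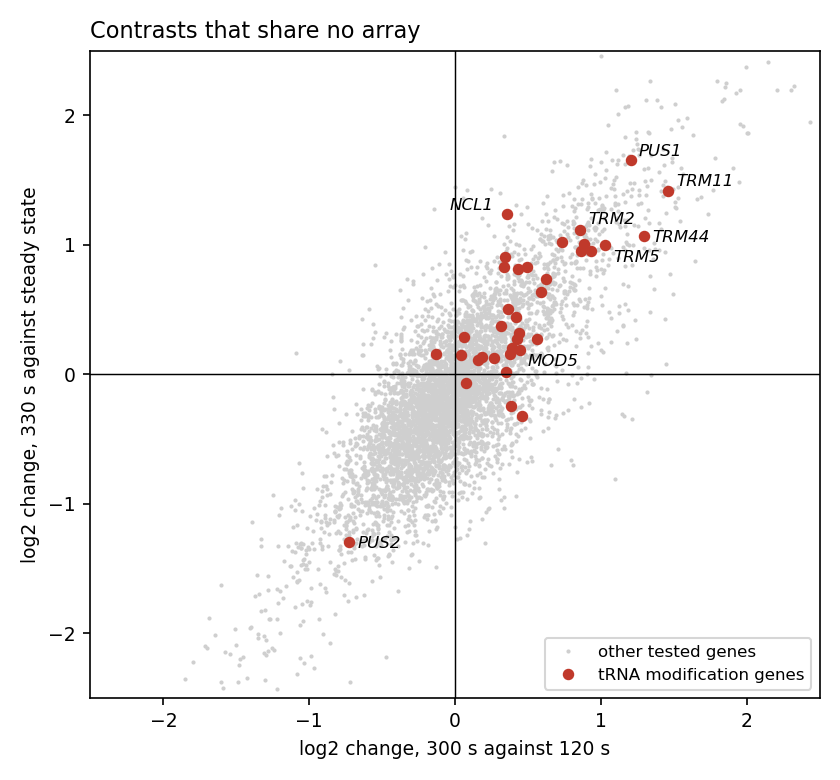
Log2 change from 120 s to 300 s (horizontal) against log2 change at 330 s from steady state (vertical) for the tRNA modification genes (red) and the other tested genes (grey), with genes beyond the drawn axis range left out. The contrasts use no common array; PUS1 and TRM11 lie at the upper right (1.20 and 1.46 across, 1.65 and 1.42 up), NCL1 lies at 0.36 across and 1.24 up, and PUS2 is the single red point at the lower left.

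Among the 18 methyltransferase genes, 8 had risen and 1 had fallen at 300 s (median log2 change 0.54), and 11 had risen at 330 s (median 0.82). Over all genes, 12.1% rose and 18.3% fell at 300 s, and 13.3% rose at 330 s. TRM5 (YHR070W) encodes the enzyme that methylates the guanosine beside the anticodon, a modification that guards the reading frame. TRM5 signals were 48.2, 49.99 and 68.03 at steady state, 71.03 and 78.9 at 30 s, 65.9 and 79.95 at 60 s, 76.7, 89.3 and 72.4 at 120 s, 53.4 at 210 s, 112, 164 and 231 at 300 s, and 87.4 and 137 at 330 s. Every 300 s and 330 s array stood above every steady-state array. The 300 s arrays were also above all earlier arrays, 330 s pulse 1 lay just under the highest 120 s array, and the 210 s array was in the steady-state range. TRM5 had the largest change of the 36 genes at 300 s, 1.56 ± 0.24 on the log2 scale or 2.95-fold (limma adjusted p = 0.000201), and at 330 s it was 1.00 ± 0.27 (adjusted p = 0.00918).

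TRM11 (YOL124C) encodes the catalytic subunit that makes methylguanosine in the body of many tRNAs. Its signals were 188, 131 and 122 at steady state, 138 and 123 at 30 s, 142 and 124 at 60 s, 132, 106 and 116 at 120 s, 120.3 at 210 s, 231, 391.8 and 376 at 300 s, and 376 and 395 at 330 s. No array up to 210 s reached the late ones, and 300 s pulse 1 was clearly lower than the other late arrays. The log2 change was 1.17 ± 0.20 (2.25-fold) at 300 s and 1.42 ± 0.22 (2.68-fold) at 330 s, with limma adjusted p of 0.000430 and 0.000164. TRM2 (YKR056W), for the enzyme that makes ribothymidine in the loop named after it, gave 80.5, 122 and 119 at steady state, 147 and 109 at 30 s, 156 and 121 at 60 s, 126, 122 and 108 at 120 s, 112 at 210 s, 158, 243 and 257 at 300 s, and 205 and 254 at 330 s. Here too the late arrays stood above all others, by a small margin on 300 s pulse 1 over 60 s pulse 2. TRM2 rose by 1.02 ± 0.21 (2.03-fold, adjusted p = 0.00191) at 300 s and by 1.11 ± 0.23 (2.16-fold, adjusted p = 0.00181) at 330 s.

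The other methyltransferase genes that rose at 300 s did so by 0.53 to 0.92 log2 units. TRM7, for a ribose methyltransferase of the anticodon loop, went from 89.3 ± 12.9 (SD, n = 3) to 159 ± 4.53 (SD, n = 3). Its 300 s signals were 164, 159.6 and 154, all above the highest steady-state signal of 97.95. TRM44, for the ribose methyltransferase of serine tRNA, went from 74.7 ± 13.8 (SD, n = 3) to 143 ± 46.4 (SD, n = 3) and reached 156 ± 12.9 (SD, n = 2) at 330 s. NCL1, which encodes the methyltransferase for cytidine, had the widest gap of the class between the late times. Its signals were 70.7, 65.8 and 47.5 at steady state, 79.5, 86.1 and 63.1 at 300 s and 153 and 132 at 330 s. The 300 s arrays overlapped those of the steady state (0.32 ± 0.21, limma adjusted p = 0.263), and the 330 s arrays were far above both (1.24 ± 0.23, adjusted p = 0.000826). That step between 300 s and 330 s was not tested and coincides with the change of day.

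TRM3, for a ribose methyltransferase of guanosine, had the smallest change of the class at 300 s. Its signals were 141, 170.4 and 98.5 at steady state, 112 and 108 at 30 s, 119.8 and 114 at 60 s, 134, 126 and 118 at 120 s, 117 at 210 s, 158, 111 and 124 at 300 s, and 163 and 134 at 330 s. The groups overlapped at every time on this probe set. The change at 300 s was -0.04 ± 0.19 (limma adjusted p = 0.902, 95% interval -0.43 to 0.36). At 330 s it was 0.15 ± 0.21, but the second brightest of its 7 probe sets gave -0.96 (adjusted p = 0.0174), so the probe sets of TRM3 disagree at that time. TRM1, which makes dimethylguanosine, and TRM12, of the wybutosine pathway, also had values near 0 at 300 s (-0.06 ± 0.25 and -0.07 ± 0.25). TRM10, for another guanosine methyltransferase, gave 0.25 ± 0.20, not past the test. TRM13, for a ribose methyltransferase of the acceptor stem, gave 0.70 ± 0.26 at 300 s (adjusted p = 0.0548) and rose by 0.95 ± 0.29 at 330 s (adjusted p = 0.0177).

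Several of these enzymes work with a partner, and the partner transcripts are set side by side here without a test of their difference. For 7-methylguanosine, TRM8 encodes the catalytic and TRM82 the supporting subunit: TRM82 rose at both late times (0.64 ± 0.19 and 1.02 ± 0.21), while TRM8 passed the test at 330 s (0.74 ± 0.26) and not at 300 s (0.55 ± 0.23, limma adjusted p = 0.0894). GCD10 and GCD14 encode the supporting and catalytic subunits of the essential enzyme for 1-methyladenosine. GCD10 rose by 0.92 ± 0.18 at 300 s and 0.95 ± 0.20 at 330 s, and GCD14 gave 0.36 ± 0.20 (not called) and 0.91 ± 0.22 (adjusted p = 0.00524). Trm112 activates both Trm9, which finishes the wobble uridine side chain begun by Elongator, and Trm11. TRM11 rose at both times and TRM9 at 300 s (0.53 ± 0.17, adjusted p = 0.0329). TRM9 gave 0.21 ± 0.20 at 330 s, not called, and TRM112 passed at neither time (0.37 ± 0.20 and 0.27 ± 0.23).

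Trm7 acts with Trm732 at one ribose of the anticodon loop and with Rtt10 at another. TRM7 rose by 0.84 ± 0.15 at 300 s (limma adjusted p = 0.000603) and RTT10, which is not among the 37 genes, by 0.65 ± 0.22 (adjusted p = 0.0325). TRM732 fell: its signals were 19.7, 25.6 and 17.6 at steady state, 18.4 and 16.01 at 30 s, 15.1 and 13.3 at 60 s, 14.3, 16.01 and 13.1 at 120 s, 13.4 at 210 s, 14.3, 13.3 and 12 at 300 s, and 23.1 and 23.2 at 330 s. The 300 s arrays were all below the steady-state arrays, but close to the floor of 12, and 1 of the 3 lay on it, while both 330 s arrays were inside the steady-state range. The log2 change at 300 s was -0.65 ± 0.16 (adjusted p = 0.00684) and at 330 s 0.16 ± 0.18 (adjusted p = 0.513), and with a floor of 24 the filter on low signals removed the gene.

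Of the 8 pseudouridine synthase genes, PUS1 and PUS7 had risen at 300 s (class median 0.37), and PUS1, PUS7 and DEG1 had risen while PUS2 had fallen at 330 s (class median 0.22). Over all genes, 12.1% rose at 300 s, and 13.3% rose and 24.3% fell at 330 s. PUS1 (YPL212C) encodes the nuclear enzyme with the broadest set of tRNA sites, which also modifies a spliceosomal RNA. PUS1 signals were 169, 125 and 135 at steady state, 189 and 149.9 at 30 s, 191 and 135 at 60 s, 140.3, 176 and 145 at 120 s, 140.4 at 210 s, 239, 419.5 and 436 at 300 s, and 409.7 and 486 at 330 s. The late arrays exceeded all earlier ones, with 300 s pulse 1 the lowest of them. The rise was 1.31 ± 0.22 log2 units (2.48-fold, limma adjusted p = 0.000323) at 300 s and 1.65 ± 0.24 (3.14-fold, adjusted p = 8.89e-05) at 330 s, the largest of the 36 at that time.

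PUS2, the paralog of PUS1 whose product acts on mitochondrial tRNA, ran the other way. Its signals were 35.4, 21.8 and 32.9 at steady state, 30.9 and 39.96 at 30 s, 26.7 and 45.7 at 60 s, 29.1, 27.1 and 35.8 at 120 s, 13.5 at 210 s, 12, 19.3 and 27.01 at 300 s, and 12 and 12 at 330 s. The 210 s array, 300 s pulse 1 and both 330 s arrays were at or near the floor, whereas 300 s pulse 3 lay inside the steady-state range. At 330 s the fitted change was -1.29 ± 0.31 (limma adjusted p = 0.00469). Since both 330 s arrays sat on the floor, the signal there was at least 2.45-fold lower than at steady state, and the fitted value moved to -1.84 with a floor of 6 and to -0.34, no longer called, with a floor of 24. At 300 s PUS2 gave -0.67 ± 0.28 (adjusted p = 0.0817).

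PUS7, for an enzyme that modifies tRNA, spliceosomal RNA and messenger RNA, rose by 0.45 ± 0.16 at 300 s (limma adjusted p = 0.0497), with arrays that overlapped the steady state, and by 0.81 ± 0.18 at 330 s. DEG1, whose product modifies the anticodon arm, had signals of 86.9 to 105.1 at 300 s, all above the steady-state range of 47.9 to 80.4, and missed the threshold (0.61 ± 0.24, adjusted p = 0.0634), which it passed with the day as a term (0.66, adjusted p = 0.0155). It passed at 330 s with 0.83 ± 0.26 (adjusted p = 0.0220). PUS4, for the enzyme of the conserved pseudouridine in the T loop, changed least in the class. PUS4 signals were 112, 82.02 and 114 at steady state, 106 and 93.5 at 30 s, 92.9 and 115 at 60 s, 78.5, 92.1 and 95.7 at 120 s, 74.9 at 210 s, 94.2, 119 and 128 at 300 s, and 111 and 95.8 at 330 s. The groups overlapped the steady state at both late times and the 210 s array lay below it, with 0.15 ± 0.17 at 300 s (adjusted p = 0.550, 95% interval -0.22 to 0.52). PUS6, PUS5 and PUS9 gave 0.29 ± 0.14, -0.19 ± 0.18 and 0.49 ± 0.18 at 300 s, none past the test.

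PUS2, PUS5 and PUS9 encode enzymes that act in mitochondria alone, a grouping made after their values were seen. Of these 3 genes 0 rose at 300 s and 0 at 330 s, and 1, PUS2, fell at 330 s. With 12.1% and 13.3% of all genes risen, a count of 0 among 3 says little. Of the 3 genes listed for the wobble uridine of mitochondrial tRNA (MTO1, MSS1 and SLM3), 0 rose either. SLM3, for the mitochondrial tRNA thiolation enzyme, fell by 0.61 on the log2 scale at 300 s (SE 0.16, limma adjusted p = 0.0109) and by 0.93 at 330 s (SE 0.18, adjusted p = 0.00122). With 18.3% of all genes fallen at 300 s and 24.3% at 330 s, 1 fallen gene in each group of 3 says little as well. No test of mitochondrial against cytoplasmic enzymes was run.

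**Figure D4:**
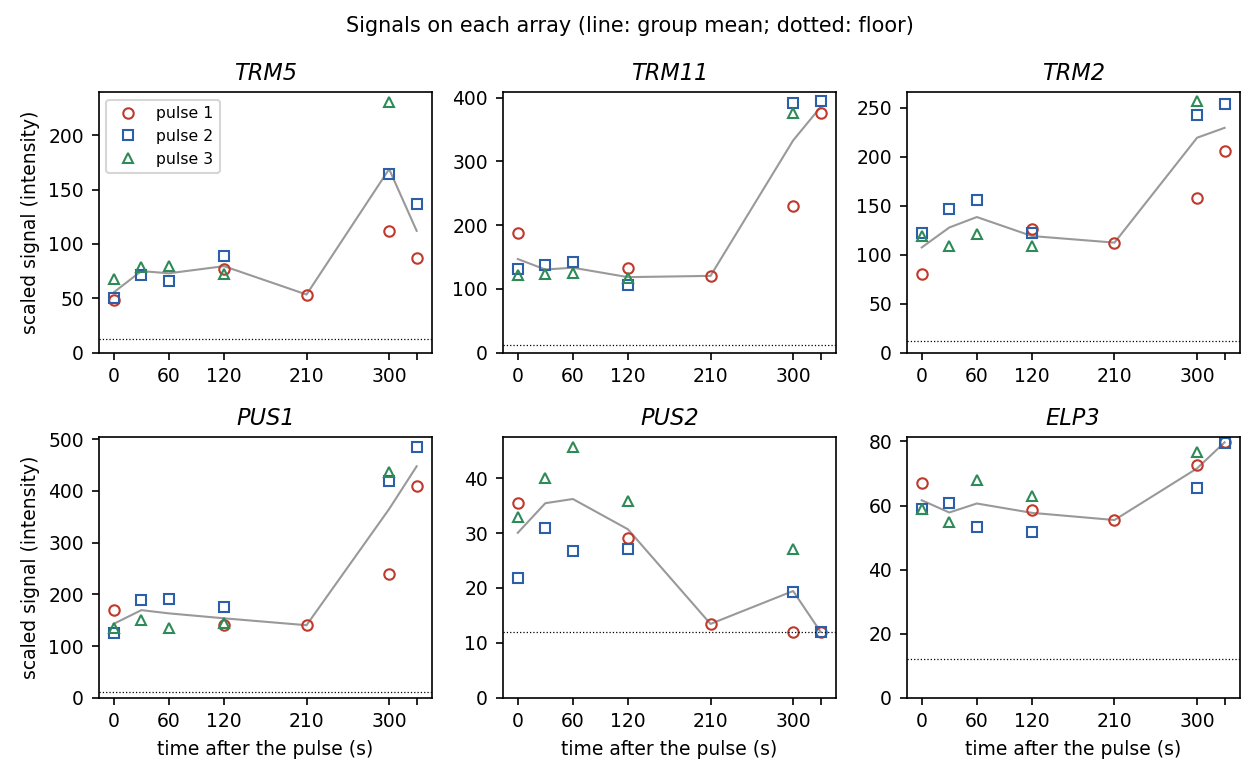
Scaled signal (linear intensity, axis from 0) on every array against time after the pulse for TRM5, TRM11, TRM2, PUS1, PUS2 and ELP3, with symbols for the pulse number, a grey line through group means and a dotted line at the floor of 12. TRM5, TRM11, TRM2 and PUS1 are above their steady-state range on all 300 s and 330 s arrays and inside or below it at 210 s, PUS2 is at the floor at 330 s, and ELP3 spans a narrow range throughout.

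Of the 3 dihydrouridine synthase genes, DUS1 and DUS3 passed the test at both late times and DUS4 at neither. The difference between them was not tested, and 12.1% of all genes rose at 300 s and 13.3% at 330 s. The calls of DUS3 at both times and of DUS1 at 300 s were lost in fits without some single arrays. DUS3 (YLR401C) signals were 50.03, 37.3 and 66.4 at steady state, 68.2 and 75.3 at 30 s, 75.4 and 83.7 at 60 s, 64.4, 46.8 and 71.1 at 120 s, 50.4 at 210 s, 54.9, 90.6 and 121 at 300 s, and 75.2 and 104 at 330 s. They were above the steady-state range at 30 s and 60 s too, and at 300 s pulse 1 lay inside that range. The change was 0.76 ± 0.27 (limma adjusted p = 0.0463) at 300 s and 0.83 ± 0.30 (adjusted p = 0.0435) at 330 s. DUS1 had 0.60 ± 0.20 (adjusted p = 0.0333) and 1.01 ± 0.23 (adjusted p = 0.00273). DUS4 (YLR405W) signals were 64.1, 62.6 and 46.01 at steady state, 45.7 and 34.8 at 30 s, 44.2 and 54.1 at 60 s, 30.1, 32.4 and 41.3 at 120 s, 30.4 at 210 s, 35.2, 52.04 and 48.8 at 300 s, and 47.3 and 48.9 at 330 s. Its lowest signals came at 120 s and 210 s, and the 300 s and 330 s arrays overlapped the steady state (-0.35 ± 0.21 and -0.24 ± 0.23, adjusted p = 0.213 and 0.422).

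The deaminase that makes inosine at the wobble position is a pair of Tad2, the catalytic subunit, and Tad3, its essential partner. TAD3 (YLR316C) signals were 81.1, 88.6 and 76.1 at steady state, 98.9 and 132 at 30 s, 99.7 and 93.9 at 60 s, 115, 83.2 and 101 at 120 s, 92.95 at 210 s, 124, 147 and 181 at 300 s, and 100.5 and 161 at 330 s. All 300 s and 330 s arrays were above the steady-state range, and so were the 30 s and 60 s arrays, with 30 s pulse 3 higher than 300 s pulse 1. TAD3 rose by 0.86 ± 0.20 at 300 s (1.82-fold, limma adjusted p = 0.00436) and by 0.64 ± 0.22 at 330 s (adjusted p = 0.0339), or 0.30 without pulse 2 of 330 s. TAD2 (YJL035C) signals were 74.2, 69 and 65.6 at steady state, 78.3 and 74.00 at 30 s, 76.6 and 59.2 at 60 s, 73.5, 64.3 and 67.2 at 120 s, 72.3 at 210 s, 78.4, 84.6 and 70.7 at 300 s, and 85.2 and 67.97 at 330 s. They overlapped at both late times, with 0.16 ± 0.16 (adjusted p = 0.466, 95% interval -0.17 to 0.49) and 0.13 ± 0.17. TAD1, which acts beside the anticodon of alanine tRNA, gave -0.17 ± 0.18 and 0.29 ± 0.20.

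MOD5 (YOR274W) encodes the isopentenyltransferase that acts next to the anticodon in both cytoplasm and mitochondria. Its signals were 82.2, 79.1 and 63.2 at steady state, 61.9 and 60.6 at 30 s, 67.4 and 65.5 at 60 s, 61.2, 60.7 and 64.3 at 120 s, 68.7 at 210 s, 77.3, 92.6 and 83.6 at 300 s, and 85.8 and 83.6 at 330 s. The arrays of 30 s and those of 120 s except pulse 3 were below the steady-state range, and the 300 s arrays overlapped it. Against steady state MOD5 gave 0.18 ± 0.15 at 300 s (limma adjusted p = 0.372), and against 120 s it rose by 0.44 ± 0.15 (adjusted p = 0.0402).

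Of the 3 measured Elongator subunit genes 0 passed the test at 300 s or at 330 s. The class medians were 0.18 and 0.15, against -0.12 and -0.19 for all genes. Of all genes 12.1% and 13.3% rose and 18.3% and 24.3% fell at these times, so 0 of 3 says little. ELP3 (YPL086C), for the catalytic subunit, had signals of 67.1, 59.01 and 58.8 at steady state, 60.8 and 54.8 at 30 s, 53.4 and 67.8 at 60 s, 58.5, 51.8 and 62.8 at 120 s, 55.5 at 210 s, 72.7, 65.4 and 76.7 at 300 s, and 79.9 and 79.6 at 330 s. Both 330 s arrays were above the steady-state range, by 0.37 ± 0.17 (limma adjusted p = 0.0979), and at 300 s the value was 0.22 ± 0.15 (adjusted p = 0.307, 95% interval -0.11 to 0.54). ELP4 (YPL101W), for a subunit of the accessory ring, had signals of 116, 154 and 116 at steady state, 116 and 119 at 30 s, 96.3 and 98.4 at 60 s, 132, 101 and 110.1 at 120 s, 145 at 210 s, 117, 144 and 119 at 300 s, and 135 and 140.2 at 330 s. ELP4 overlapped the steady state at both late times and gave -0.01 ± 0.15 and 0.11 ± 0.17. ELP2, for a scaffold subunit, gave 0.18 ± 0.17 and 0.15 ± 0.19. No test of Elongator against the other classes was run.

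The 210 s sample is 1 array from 1 culture and entered no test. Its day held 120 s pulse 1 and no steady-state array. A difference from steady state at 210 s therefore cannot be told apart from a difference of day. On the 210 s array, 6 of the 36 genes stood above all steady-state arrays (19.2% of all genes did) and 8 stood below (31.7% of all genes). Of the 13 genes risen at 300 s, 4 were above the steady-state range on the 210 s array, which is 30.8%, while over all genes it was 351 of 656 (53.5%). The 4 were TRM7, GCD10, DUS1 and TAD3. TRM5, TRM2 and PUS1 were inside their steady-state range at 210 s with signals of 53.4, 112 and 140.4, and TRM11 was just below it with 120.3. Without a replicate at 210 s, no time of onset between 120 s and 300 s can be read from these values.

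The wider machinery of tRNA maturation was followed with 55 further genes in 7 lists, of which 52 were tested. At 300 s 8 of the 52 rose and 2 fell, where 12.1% and 18.3% of all genes did, with a median log2 change of -0.06 against -0.12 for all genes and 0.36 for the 36 modification genes. At 330 s 10 rose and 3 fell (13.3% and 24.3% of all genes), and between 120 s and 300 s 7 rose and 1 fell (11.3% and 10.8%). The lists below are small, and their counts are given as a description. Of 8 other Elongator subunits and regulators 2 rose at 300 s. They were KTI12, for an Elongator-associated protein, with 0.94 ± 0.12 (limma adjusted p = 2.48e-05), and HRR25, for a casein kinase that phosphorylates Elongator among other targets, with 0.55 ± 0.18 (adjusted p = 0.0303). The subunit genes in that list, IKI1 and ELP6, were not called at 300 s.

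Of 6 genes for thiolation of the wobble uridine, 0 rose and 1 fell at 300 s, where 12.1% and 18.3% of all genes did. The 1 was UBA4, for the enzyme that activates the sulfur carrier Urm1, with -0.59 ± 0.21 (limma adjusted p = 0.0453). NCS6, for a tRNA thiolation enzyme, gave 0.29 ± 0.17. Of 8 genes for threonylcarbamoyl adenosine, the modification next to the anticodon of tRNAs that read codons starting with A, 2 rose. These were TCD1 and TCD2, whose products close the ring of the finished modification, with 0.78 ± 0.14 (adjusted p = 0.000734) and 0.88 ± 0.16 (adjusted p = 0.000800). The genes of the synthesis itself were not called at 300 s. Of 10 genes for other base and ribose modifications 3 rose: RIB2 by 0.66 ± 0.17 (a pseudouridine synthase that also serves riboflavin synthesis), RTT10 by 0.65 ± 0.22 and KRE33 (an acetyltransferase of ribosomal RNA and tRNA). KRE33 was at the floor on 2 of 3 steady-state arrays, so its fitted change of 0.61 ± 0.20 depends on the floor and may understate the change.

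Of 15 genes for tRNA splicing, end processing and export, POP1 rose at 300 s, beside 12.1% of all genes, and the list's median of -0.11 was close to the -0.12 of all genes. At 330 s and between 120 s and 300 s 2 of the 15 rose. POP1, for a shared subunit of RNase P and RNase MRP, gave 0.50 ± 0.16 (limma adjusted p = 0.0262), and LHP1, for the La protein that binds the ends of new tRNAs, gave 0.39 ± 0.18 (adjusted p = 0.125). In the mitochondrial list MSS1 gave -0.47 ± 0.22 (adjusted p = 0.118) beside SLM3. Trm112 also activates methyltransferases outside tRNA, and their genes BUD23 (ribosomal RNA) and MTQ2 (a release factor) gave 0.47 ± 0.29 and 0.02 ± 0.18, neither called.

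**Figure D5:**
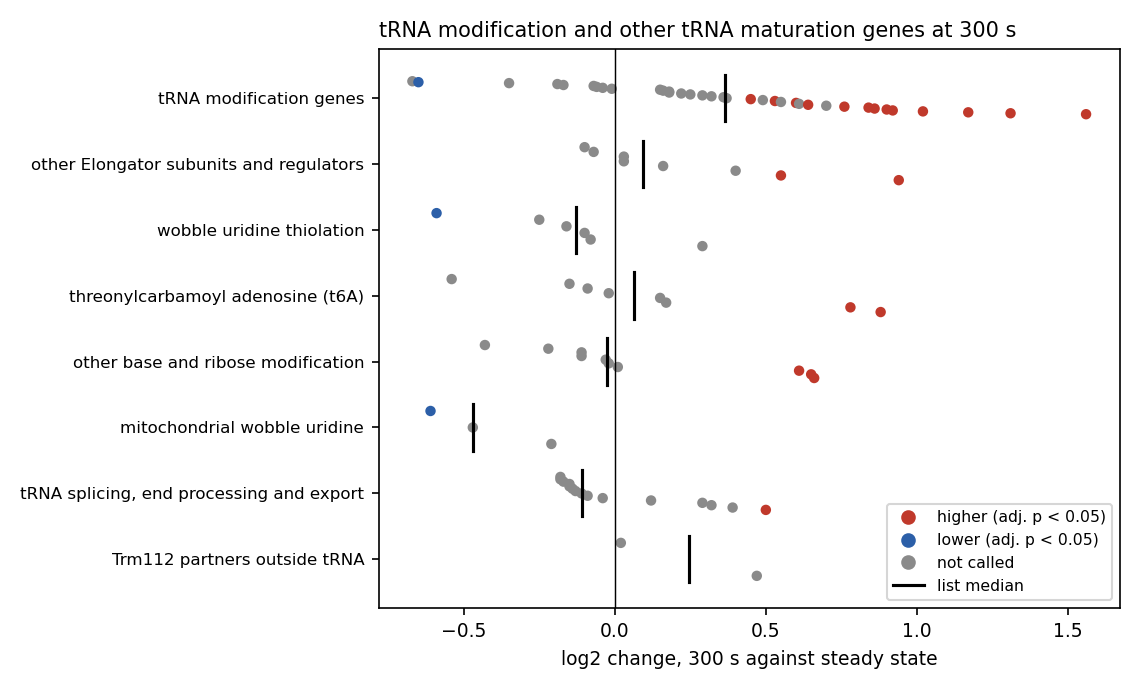
Log2 change at 300 s against steady state for the 36 tRNA modification genes (top row) and the 52 tested genes of 7 further lists of tRNA maturation, 1 point per gene, red where the gene rose, blue where it fell and grey where it was not called, with a black bar at each list's median. The top row has a median of 0.36 and holds 13 red points; the splicing, end processing and export list has a median of -0.11 and 1 red point.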

How the data were processed

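Per the submitters' processing notes the authors used GCOS, the Affymetrix software, a program whose version the sources used here do not give. The authors deposited 1 linear intensity per probe set and array, not on a common scale. Of 9335 probe sets 6504 carried 1 gene in the platform annotation, and all of these matched RefSeq names. Each array was rescaled to a mean of 150 after trimming 2% at each end, signals under 12 were set to 12, and log2 was taken. Each gene took its brightest probe set and needed a signal over the floor on at least 2 arrays. A linear model with group means (limma 3.58.1, R 4.3.3, moderated with a mean-variance trend, 9 residual and 6.3 prior degrees of freedom) was fitted to 15 arrays of 6 groups, and adjusted p-values are Benjamini-Hochberg values per comparison over 5410 genes. The fit was also run on simulated data with independent noise and no day or pulse effects, so that run cannot speak to such effects. The number of arrays limits the precision.

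The members, classes and lists were chosen with earlier results of these data known. Signals on every array are given for members called at 300 s with a log2 change of at least 1 and for the largest and smallest change of each class; from each further list, the 2 largest called changes at 300 s are named, or the 2 largest values. KRE33, TRM7, TRM732, PUS2 and NCL1 are described beyond that rule, after their values were seen. The day of hybridization (or of the scan) served only as a batch. Pulse numbers, which the titles give, were treated as replicate numbers. Same-numbered arrays did not all deviate together, so no pairing was used in the main fit. A block for the pulse number was run as an alternative. Alternatives concerned scaling, floor and filter, the variance trend, which samples were fitted, blocks, the second probe set, a stricter threshold and leaving out single arrays. Promoter motifs were not analysed here.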

Additional observations from a re-analysis of the deposited data

Results flagged for a closer look

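The signals of 6 genes stood above all 3 steady-state arrays on the single 210 s array, which entered no comparison. Their signals there were 105.2 for TRM7, 124.1 for GCD10, 104.2 for GCD14, 102.1 for DEG1, 86.6 for DUS1 and 92.9 for TAD3. DUS1 and TAD3 exceeded the highest steady-state signal (85.02 and 88.6) by little, and DEG1 and GCD14 by more (80.4 and 66.98). With 1 array these values have no replicate check, and 19.2% of all tested genes were above their steady-state arrays on it. The day of that array held 120 s pulse 1 and no steady-state array. A difference from steady state at 210 s therefore cannot be told apart from a difference of day. On 120 s pulse 1 the same 6 genes were also above all steady-state arrays. Their signals there were 129.8 for TRM7, 112.7 for GCD10, 67.03 for GCD14, 107.2 for DEG1, 87.78 for DUS1 and 115 for TAD3.

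For 4 genes all arrays of an early time lay below, and all arrays of a late time above, all steady-state arrays. Of all 5410 genes, 594 lay below in this way at 30 s, 630 at 60 s and 562 at 120 s. Above lay 764 at 300 s and 1026 at 330 s. Every pair of times was searched, and the share of all genes with both directions was not counted. The 4 genes therefore cannot be set against such a share and are given as a description. The difference between the times was not tested. TRM44 gave -0.40 at 120 s, 0.90 at 300 s and 1.07 at 330 s on the log2 scale. TRM82 gave -0.31 at 30 s, 0.64 at 300 s and 1.02 at 330 s. Its highest 30 s signal of 40.34 was barely under its lowest steady-state signal of 40.45. DUS1 gave -0.30 at 30 s, 0.60 at 300 s and 1.01 at 330 s, and MOD5 gave -0.28 at 30 s and 0.19 at 330 s. None of the early values passed the limma test. No group held 4 or more arrays, so single arrays were not tested as outliers.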

How the results depend on the processing

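At 30 s, 60 s and 120 s, 0 genes were called under every alternative run. The 13 genes risen at 300 s became 7 with only the compared groups in the fit and 8 at an adjusted p under 0.01, and 9 to 12 with 1 array left out. The 1 fallen gene became 0 with a floor of 24 and 2 with the replicate block (pulse number), which added PUS2 (-0.67, adjusted p = 0.0297), and was 1 to 2 with 1 array left out. The 17 risen at 330 s became 11 with the array-number series as a block, 11 at an adjusted p under 0.01 and 9 to 15 with 1 array left out; the 1 fallen became 0 with a floor of 24 and 2 with the second probe set. The 11 risen between 120 s and 300 s became 7 at an adjusted p under 0.01 and ranged from 8 to 15 with 1 array left out. The 0 fallen became 1 with the replicate block, 1 with the series block and 0 to 1 with 1 array left out. The F test called 12 to 18 genes with 1 array left out and 13 to 21 otherwise. TRM3 at 330 s reversed from 0.15 to -0.96 (adjusted p = 0.0174) with its second probe set; the cause was not tested for these shifts.

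Over all genes, fitting only the compared groups gave 436 higher and 502 lower at 300 s and 493 and 806 at 330 s, against 656 and 992, and 720 and 1314. An adjusted p under 0.01 gave 437 and 515 at 300 s, 486 and 797 at 330 s, and 402 and 311 between 120 s and 300 s, and the fit without 330 s pulse 1 gave 498 and 837. At 120 s, 3 higher and 1 lower gene became 9 and 4 with the replicate block, 7 and 3 with the series block, 1 and 0 with only the compared groups, 0 and 0 with the day as a block, 6 and 17 without steady-state pulse 3, 2 and 0 without pulse 1 of steady state or of 120 s, 0 and 0 without the arrays of the 2 earliest days, and 1 and 0 without 120 s pulse 2. At 30 s, 0 genes became 2 higher and 15 lower without 30 s pulse 2, and at 60 s 0 became 3 lower without 60 s pulse 2, 2 lower without steady-state pulse 3 and 1 higher with no filter on low signals. At 330 s, 52.8% of called genes were higher with median centring, against 35.4%.

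In every alternative that gave a value, 8 of the 14 genes called at 300 s and 8 of the 18 called at 330 s kept their call: TRM2, TRM7, TRM5, TRM11, GCD10, PUS1, TAD3 and TRM732 at 300 s. Same-numbered arrays of different times correlated from 0.03 to 0.42 on a shared day and from -0.20 to 0.34 on other days, and 12 of 15 arrays correlated best with their own number, a hint from the data and not from the design. The replicate block moved the 13 risen genes to 15 at 300 s (DEG1 had a limma adjusted p of 0.0414) and the 17 to 16 at 330 s. Over all genes the same block moved 656 risen to 754 at 300 s and 720 to 796 at 330 s. The fit without the arrays of the 2 earliest days, chosen after seeing the data, gave 10 risen genes at 300 s and 565 over all genes. The day block could not be fitted for 330 s or the F test, and the alternative on motif letters was not run.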
